A study of Arabidopsis thaliana with 8 samples.

Results

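The *SAUR* (small auxin up RNA) genes described here are the family members of *Arabidopsis thaliana* that lie outside the *SAUR19* to *SAUR24* and *SAUR26* to *SAUR29* clusters. They were chosen by gene identifier, 40 of the 33602 genes with a deposited value. Of the 40, 24 were placed by neighbouring identifiers in 6 groups, called tandem clusters here, and 16 stand alone. The statistics were kept to the 35 members with at least 1 CPM (a read count scaled to a common library size) in at least 2 libraries. RNA was sequenced from leaves and shoot apices of wild-type plants of the ecotype Col, from which cotyledons, hypocotyls and roots had been removed. Plants stayed in simulated sun or were moved, from ZT 4 (4 hours after lights on), to simulated shade. Both lights were white light with added far-red, and shade had the lower ratio of red to far-red light. Plants in each light were sampled after 1 hour and after 4 hours, with 2 replicate libraries of 5 pooled plants for each of the 4 conditions. All 8 libraries therefore share genotype, tissue and growth conditions, and differ in the light and the hour of harvest.

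SAUR proteins are small and short lived, and most of their genes have no intron. Auxin induces many of them within minutes, and shade raises auxin synthesis in leaves through the PIF transcription factors. Several SAUR proteins inhibit PP2C-D phosphatases, which frees plasma membrane proton pumps to acidify the cell wall and lets the cell expand. Not all members are auxin-induced, since some respond to light, brassinosteroid, ethylene or age.

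Libraries held 1154019 to 4680620 reads on genes. The first replicate of shade at 4 h was the shallowest, with 1 read worth 0.856 CPM there and at most 0.291 CPM in the others. Replicates of a condition correlated at Spearman's rho of 0.951 to 0.985 across tested genes, and the lowest value was that of shade at 4 h. Leaf markers summed to between 31462 and 41632 CPM, shoot apex markers to between 12.5 and 19.8 CPM and root markers to at most 1.74 CPM. Of the 4 root markers 2 were at 0 in every library, and of the 4 shoot apex markers 1 was. A list of 8 jasmonate and wound genes stood apart in 3 libraries, the first replicate of sun at 1 h (551 CPM summed), the second of sun at 4 h (512) and the first of shade at 4 h (945), against 69.0 to 118 in the other 5. The part of this difference in the results was not tested, and the counts without the 3 libraries are given with the counts over all libraries. Leaving them out keeps 1 library each for sun at 1 h, sun at 4 h and shade at 4 h. In that fit fewer of all genes were called in every comparison, so its counts do not single out the members. At 1 h of shade the log2 fold change was below 0 for all 8 genes of this list (median -1.002). Of the 8, 6 lay wholly lower in shade, against 18.5% of all genes, with 0 past the test and 0 at an unadjusted p under 0.05 in limma.

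The 250 bases before the annotated start were read for 39 of the genes from the TAIR10.1 genome (RefSeq), and those of *SAUR65*, *SAUR64*, *SAUR66*, *SAUR63* and *SAUR15*, 5 of the 6 members that passed a test for shade, are printed first because the results turn on those genes. Each is written from its 5′ end to the base before the start, in the direction of the gene. Capitals mark CACATG (an E-box that PIF proteins can bind), CACGTG (the G-box) and TGTCTC (the auxin response element), on either strand.
SAUR65 (chr1:10308247-10308496, minus strand): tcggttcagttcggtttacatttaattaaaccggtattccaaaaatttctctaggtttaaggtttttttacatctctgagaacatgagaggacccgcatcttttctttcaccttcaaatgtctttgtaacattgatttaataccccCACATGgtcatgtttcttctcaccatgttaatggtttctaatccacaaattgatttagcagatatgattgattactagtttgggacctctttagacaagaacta
SAUR64 (chr1:10306596-10306845, minus strand): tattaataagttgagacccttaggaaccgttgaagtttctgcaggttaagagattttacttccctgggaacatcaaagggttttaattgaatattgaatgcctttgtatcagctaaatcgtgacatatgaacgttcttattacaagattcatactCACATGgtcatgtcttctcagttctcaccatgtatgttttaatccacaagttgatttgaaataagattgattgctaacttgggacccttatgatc
SAUR66 (chr1:10320761-10321010, plus strand): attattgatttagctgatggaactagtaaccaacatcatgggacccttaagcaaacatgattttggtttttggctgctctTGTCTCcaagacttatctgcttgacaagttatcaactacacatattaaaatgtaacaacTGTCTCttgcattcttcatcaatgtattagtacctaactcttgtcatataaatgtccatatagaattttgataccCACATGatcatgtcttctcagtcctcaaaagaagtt
SAUR63 (chr1:10305109-10305358, minus strand): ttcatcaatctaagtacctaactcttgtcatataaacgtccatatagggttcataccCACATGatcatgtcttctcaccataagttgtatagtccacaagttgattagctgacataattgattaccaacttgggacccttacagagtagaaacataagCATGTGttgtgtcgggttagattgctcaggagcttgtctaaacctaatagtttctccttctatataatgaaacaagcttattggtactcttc
SAUR15 (chr4:18125807-18126056, plus strand): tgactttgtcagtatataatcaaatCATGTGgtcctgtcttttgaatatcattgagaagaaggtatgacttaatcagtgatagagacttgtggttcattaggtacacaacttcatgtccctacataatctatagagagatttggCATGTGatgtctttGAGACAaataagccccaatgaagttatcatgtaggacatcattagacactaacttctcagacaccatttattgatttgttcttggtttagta
Next are 4 members of the tandem clusters that did not pass the test in shade.
SAUR61 (chr1:10302100-10302349, minus strand): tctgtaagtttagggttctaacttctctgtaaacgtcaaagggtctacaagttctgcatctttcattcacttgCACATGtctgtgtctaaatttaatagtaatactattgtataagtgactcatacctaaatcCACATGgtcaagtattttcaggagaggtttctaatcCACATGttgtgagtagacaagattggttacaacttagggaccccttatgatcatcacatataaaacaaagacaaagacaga
SAUR14 (chr4:18125560-18125809, minus strand): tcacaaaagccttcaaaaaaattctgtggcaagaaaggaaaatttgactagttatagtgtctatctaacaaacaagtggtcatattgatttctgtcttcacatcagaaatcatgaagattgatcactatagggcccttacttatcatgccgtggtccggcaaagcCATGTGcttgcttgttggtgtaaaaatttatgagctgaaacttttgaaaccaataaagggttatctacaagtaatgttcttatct
SAUR16 (chr4:18129987-18130236, plus strand): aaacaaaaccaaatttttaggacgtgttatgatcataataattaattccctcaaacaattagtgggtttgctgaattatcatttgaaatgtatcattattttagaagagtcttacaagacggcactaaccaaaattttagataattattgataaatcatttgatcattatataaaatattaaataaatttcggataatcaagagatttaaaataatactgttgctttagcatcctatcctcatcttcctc
SAUR50 (chr4:16583076-16583325, minus strand): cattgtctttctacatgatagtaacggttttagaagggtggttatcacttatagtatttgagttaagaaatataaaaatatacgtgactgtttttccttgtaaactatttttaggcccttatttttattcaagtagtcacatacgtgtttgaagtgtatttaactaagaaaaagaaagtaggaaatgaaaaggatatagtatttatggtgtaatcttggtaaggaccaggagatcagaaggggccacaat

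Of the 6 members that passed in shade the window was read for 5, and these 5 held CACATG in it, as did 10 of the 29 tested members that did not pass in shade and 18 of all 39. The share among the 39 was 46.2%, and among 27442 protein-coding genes of the annotation it was 11.1%. In *SAUR65* and *SAUR64* the match began 104 and 95 bases before the start, and in *SAUR66* 36 bases before it. *SAUR63* and *SAUR15* each held a pair, at 193 and 92 bases and at 225 and 106 bases. The element was also in the windows of *SAUR61*, with 3 matches, and *SAUR14*, with 1, neither of which passed the test in shade. It was absent from those of *SAUR16* and *SAUR50*.

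The E-box was in 15 of the 23 windows read in tandem clusters and in 3 of the 16 single genes. All 8 genes from *SAUR61* to AT1G29510 held it, 3 of 5 read from *SAUR50* to *SAUR5*, 2 of 3 from *SAUR14* to *SAUR16*, 1 of 3 from *SAUR7* to *SAUR12*, 1 of *SAUR51* and *SAUR52*, and 0 of *SAUR54* and *SAUR53*. Cluster neighbours share sequence by descent, so their windows are not independent of one another. Of the 10 genes of the *SAUR19* to *SAUR24* and *SAUR26* to *SAUR29* clusters 7 held it. Among tested members with the element the median log2 fold change at 1 h of shade was 1.26 (n = 15), and among those without it 0.36 (n = 19). The ranges overlapped widely, from -0.16 to 2.74 and from -0.85 to 1.67. Among the 15 with the element were all 8 genes from *SAUR61* to AT1G29510, whose median was 1.87. Of the others, *SAUR9* was at 2.14 and *SAUR15* at 1.65. *SAUR3*, *SAUR8*, *SAUR14*, *SAUR6* and *SAUR51* lay between -0.16 and 0.25, below the median of the members without the element. The higher median with the element thus rests largely on 1 cluster.

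The other motifs were less frequent or close to the share in all genes. TGTCTC was in 5 of 39 members (12.8%, against 10.9% of all genes) and in 2 of the 5 printed first, *SAUR15* and *SAUR66*. Its shorter core TGTCNC was in 9 of 39 (23.1%, against 23.9%). CACGTG was in 1 member, *SAUR59*, which held it at 2 positions (2.56%, against 6.49%), and TATAAA was in 21 (53.8%, against 47.4%). Both strands were searched, and each TGTCTC match is also a match of the core. A match of letters describes the window and is not a measurement of binding.

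**Figure D1:**
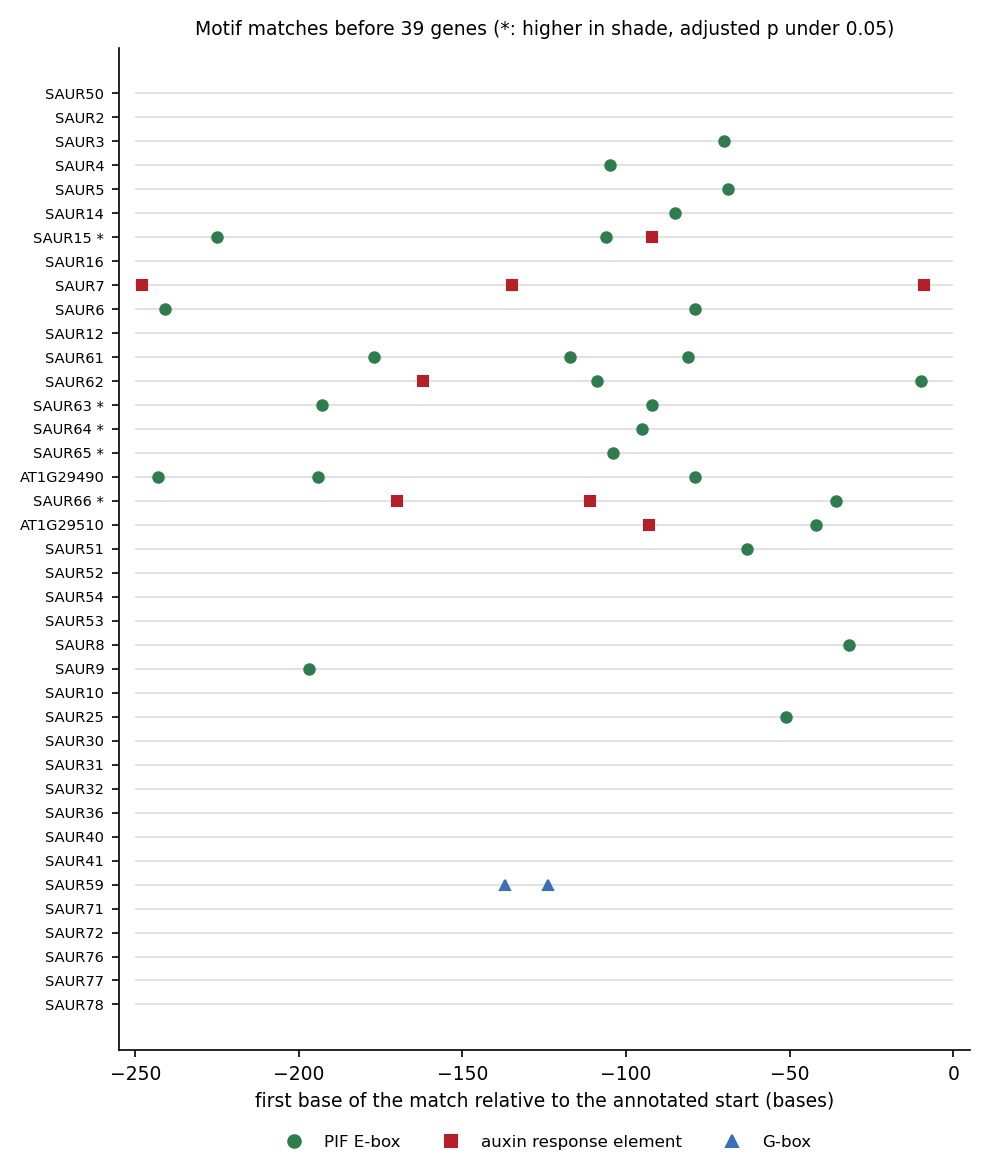
Matches of 3 motifs in the 250 bases before each of 39 genes, 1 row per gene, with the distance of the first base of the match from the annotated start on the x axis. Green circles are CACATG, red squares TGTCTC and blue triangles CACGTG, and an asterisk marks the 5 shown of the 6 genes higher in shade. These 5 have a green circle, and 13 of the 18 with CACATG have one between 60 and 120 bases before the start.

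At 1 h of shade 4 of the 35 tested members rose and 0 fell. They were *SAUR65*, *SAUR64* and *SAUR66*, neighbours on chromosome 1, and *SAUR1* on chromosome 4. The share of all tested genes called in this comparison was 0.472% (0.451% higher and 0.0207% lower), where called means an adjusted p under 0.05 in limma on log2(CPM + 1), with Benjamini-Hochberg adjustment over 19280 genes. Without the 3 libraries high in jasmonate and wound genes 0 members passed. With all libraries 15 members were under an unadjusted p of 0.05, against 6.73% of all genes. A log2 fold change above 1 was found for 12 members (34.3%) and 1.46% of all genes. The shade libraries lay above both sun libraries for 18 members (51.4%, against 19.5%) and below them for 2 (5.71%, against 18.5%). The log2 fold change was above 0 for 28 members (80%, against 49.9%), with a median of 0.54 over the members and -0.00 over all genes. In a bulk sample more RNA per cell and more cells of a type cannot be told apart.

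The chromosome 1 cluster, *SAUR61* to AT1G29510, holds 8 genes within 21863 bases and gave the largest values. *SAUR65* (AT1G29460) was at 1.74 and 0.837 CPM in the 2 sun libraries at 1 h and at 13.8 and 14.1 CPM in shade. After 4 h it was at 0.662 and 1.19 CPM in sun against 3.43 and 2.91 CPM in shade. The groups did not overlap at either time, and the shade level at 4 h was far below that at 1 h while still above sun. The log2 fold change was 2.74 at 1 h (SE 0.39, limma, adjusted p = 0.00586) and 1.13 at 4 h (SE 0.39, adjusted p = 0.425). Summed over replicates, 10 reads in sun stood against 113 in shade at 1 h, a ratio of 10.6 (95% counting interval 5.56 to 22.7). This ratio is larger than the fitted change because adding 1 to a CPM near 1 shrinks it, and the interval covers counting error only.

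*SAUR64* (AT1G29450), its neighbour, was at 2.99 and 1.40 CPM in sun at 1 h and 13.6 and 12.9 CPM in shade. At 4 h it was at 1.32 and 0.9497 CPM in sun against 5.14 and 5.23 CPM in shade. Shade exceeded sun in each pair of libraries at each time, with replicates close to one another in shade. The log2 fold change was 2.21 at 1 h (SE 0.37, limma, adjusted p = 0.0158) and 1.54 at 4 h (SE 0.37, adjusted p = 0.177). *SAUR66* (AT1G29500), further along the cluster on the other strand, differed in its later course. It was at 3.49 and 3.07 CPM in sun against 17.1 and 18.7 CPM in shade at 1 h, and at 3.97 and 3.56 CPM in sun against 3.43 and 6.39 CPM in shade at 4 h. The groups were well apart at 1 h and overlapped at 4 h. Its log2 fold change was 2.14 at 1 h (SE 0.34, adjusted p = 0.0130) and 0.26 at 4 h (SE 0.34, adjusted p = 0.884).

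The difference of the 2 responses of *SAUR66* was -1.88 on the log2 scale (SE 0.49, limma, unadjusted p = 0.00186, adjusted p = 0.587). *SAUR63* (AT1G29440), known to promote elongation of hypocotyls and stamen filaments when overexpressed, missed the threshold at 1 h. It was at 4.23 and 2.51 CPM in sun against 18.8 and 11.8 CPM in shade at 1 h, and at 1.98 and 1.90 CPM in sun against 3.43 and 6.39 CPM in shade at 4 h. Shade was above sun in every library of each time. The log2 fold change was 1.89 at 1 h (SE 0.39, limma, adjusted p = 0.0560) and 0.96 at 4 h (SE 0.39, adjusted p = 0.513).

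The other 4 genes of the cluster did not pass in any comparison in limma with all libraries. DESeq2 called AT1G29490 for the mean of both times, and edgeR and a fit of the sun libraries alone called *SAUR62* for the change in sun. *SAUR62* was at 6.48 and 6.14 CPM in sun against 17.5 and 15.5 CPM in shade at 1 h, a log2 difference of 1.26 (SE 0.34, limma, adjusted p = 0.232). AT1G29510 was at 3.98 and 1.67 CPM in sun against 9.52 and 5.75 CPM in shade, and AT1G29490 at 0 and 0.279 CPM against 1.95 and 4.60 CPM. These 3 did not overlap between sun and shade at 1 h. *SAUR61*, at the end of the cluster, did overlap, with 6.72 and 7.54 CPM in sun against 13.6 and 6.04 CPM in shade (log2 difference 0.32, SE 0.37). The level of *SAUR65* relative to *SAUR61*, its neighbour 4 genes away, was 11.1% and 25.9% in sun at 1 h and 102% and 233% in shade. At 4 h the share was 14.3% and 21.7% in sun and 62.5% and 80.0% in shade.

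**Figure D2:**
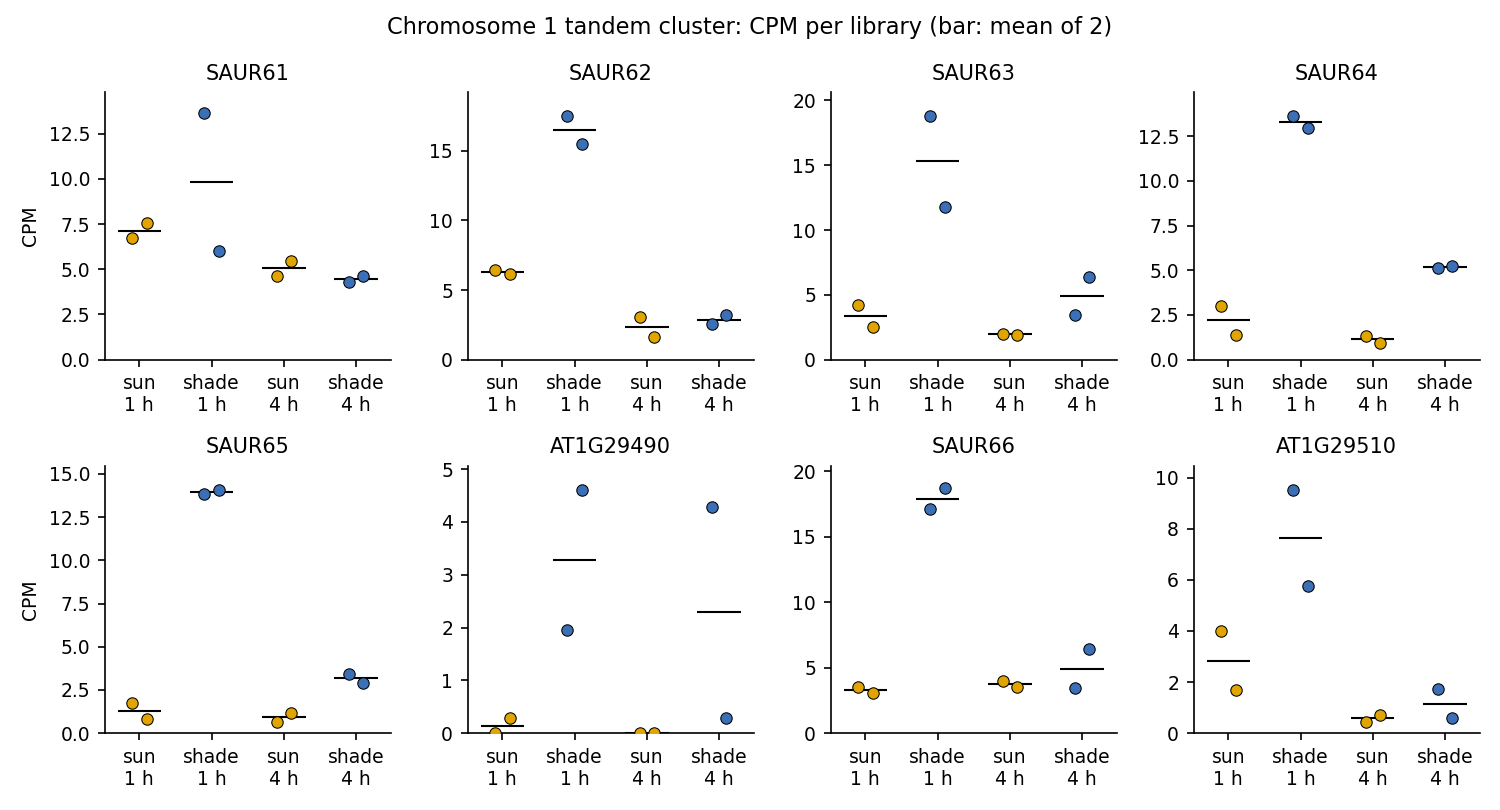
CPM in each of the 8 libraries for the 8 genes of the chromosome 1 cluster, 1 panel per gene with its own y axis from 0, yellow for sun and blue for shade. Points are libraries and bars the mean of 2. *SAUR65*, *SAUR64* and *SAUR66* have shade points at 1 h between 12.9 and 18.7 CPM, above every other point in their panels, while the *SAUR61* points at 1 h overlap.

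The cluster as a whole summed to 29.6 and 23.4 CPM in sun against 106 and 89.4 CPM in shade at 1 h. At 4 h the sums were 16.1 and 15.4 CPM in sun against 28.3 and 29.7 CPM in shade. The median log2 fold change of its 8 genes was 1.87 at 1 h (range 0.32 to 2.74) and 0.68 at 4 h (range -0.14 to 1.54). Coding sequences within the cluster were 45.4% to 89.3% identical over all columns of the alignment, gaps included, with *SAUR63* and AT1G29510 the closest pair. Genes of unlike length score lower on this measure. The lowest pair, *SAUR65* and AT1G29490, have coding sequences of 561 and 309 bases, with 257 identical bases in 566 columns. Of the 40-base windows of the transcript, the length of a read, 28.4% in *SAUR62*, 33.2% in *SAUR63* and 39.7% in AT1G29510 recurred elsewhere in the genome, on either strand. How reads matching several genes were counted is not given in the sources used here, so the levels of these 3 genes are uncertain. For *SAUR64*, *SAUR65* and *SAUR66* the share was at most 2.58%. *SAUR63* and *SAUR64* also overlap an antisense gene, AT1G29435, and *SAUR61* overlaps another, AT1G06257. Reads from the 2 strands cannot be told apart in an unstranded library.

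On chromosome 4, neighbouring genes differed widely in level and in their values in shade. In the cluster from *SAUR50* to *SAUR5* (6 genes within 17386 bases), *SAUR1* (AT4G34770) was at 2.49 and 1.95 CPM in sun against 10.6 and 15.2 CPM in shade at 1 h. By 4 h its level was 1.10 and 1.19 CPM in sun against 2.57 and 6.39 CPM in shade. Shade exceeded sun in every library at both times. The log2 fold change was 2.10 at 1 h (SE 0.42, limma, adjusted p = 0.0463) and 1.26 at 4 h (SE 0.42, adjusted p = 0.393). *SAUR50* (AT4G34760), the next gene on the other strand and known as a light-induced *SAUR* of cotyledons, was at 35.9 and 27.6 CPM in sun against 42.2 and 61.5 CPM in shade at 1 h. At 4 h it was at 26.02 and 22.6 CPM in sun against 20.6 and 31.7 CPM in shade. Its groups were apart at 1 h by less than their own spread and overlapped at 4 h, with log2 differences of 0.68 (SE 0.25, adjusted p = 0.544) and 0.07 (SE 0.25, adjusted p = 0.958). *SAUR1* stood at 6.94% and 7.07% of the *SAUR50* level in sun at 1 h and at 25.1% and 24.8% in shade, and at 4 h at 4.24% and 5.26% in sun and 12.5% and 20.2% in shade.

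The rest of that cluster was low. *SAUR3* lay between 1.99 and 5.99 CPM and overlapped between sun and shade at both times. *SAUR4* had 24 reads and *SAUR5* 14 over all 8 libraries, and *SAUR2* had 0. A count of 0 allows up to 3 reads, which is 2.57 CPM in the shallowest library.

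In the cluster *SAUR14* to *SAUR16* (3 genes within 6307 bases), the gene in the middle had the larger shade difference. *SAUR15* (AT4G38850), which as *SAUR-AC1* is a classic early auxin-induced gene, was at 1.99 and 2.79 CPM in sun against 11.03 and 8.33 CPM in shade at 1 h. At 4 h it was at 0.882 and 1.19 CPM in sun against 5.99 and 4.65 CPM in shade. Sun and shade were apart at both times and by a like amount. The log2 difference was 1.65 at 1 h (SE 0.37, limma, adjusted p = 0.0839) and 1.63 at 4 h (SE 0.37, adjusted p = 0.160).

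*SAUR14* (AT4G38840) and *SAUR16* (AT4G38860), like *SAUR50* known as light-induced in cotyledons, flank it. *SAUR14* is transcribed away from *SAUR15*, so that their upstream windows meet between the genes. *SAUR14* was at 37.9 and 24.003 CPM in sun against 31.4 and 34.2 CPM in shade at 1 h, and at 14.1 and 10.9 CPM in sun against 8.56 and 22.7 CPM in shade at 4 h. *SAUR16* was at 60.02 and 53.3 CPM in sun against 65.1 and 82.8 CPM in shade at 1 h, and at 23.8 and 21.6 CPM in sun against 27.4 and 41.9 CPM in shade at 4 h. *SAUR14* overlapped between sun and shade at both times, and *SAUR16* did at neither. The log2 differences of *SAUR16* were 0.37 at 1 h (SE 0.21, limma, adjusted p = 0.807) and 0.56 at 4 h (SE 0.21, adjusted p = 0.476). As a share of *SAUR16*, *SAUR15* was 3.32% and 5.24% in sun at 1 h, 16.9% and 10.1% in shade at 1 h, 3.70% and 5.49% in sun at 4 h and 21.9% and 11.1% in shade at 4 h. Every shade library was above every sun library in that share.

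**Figure D3:**
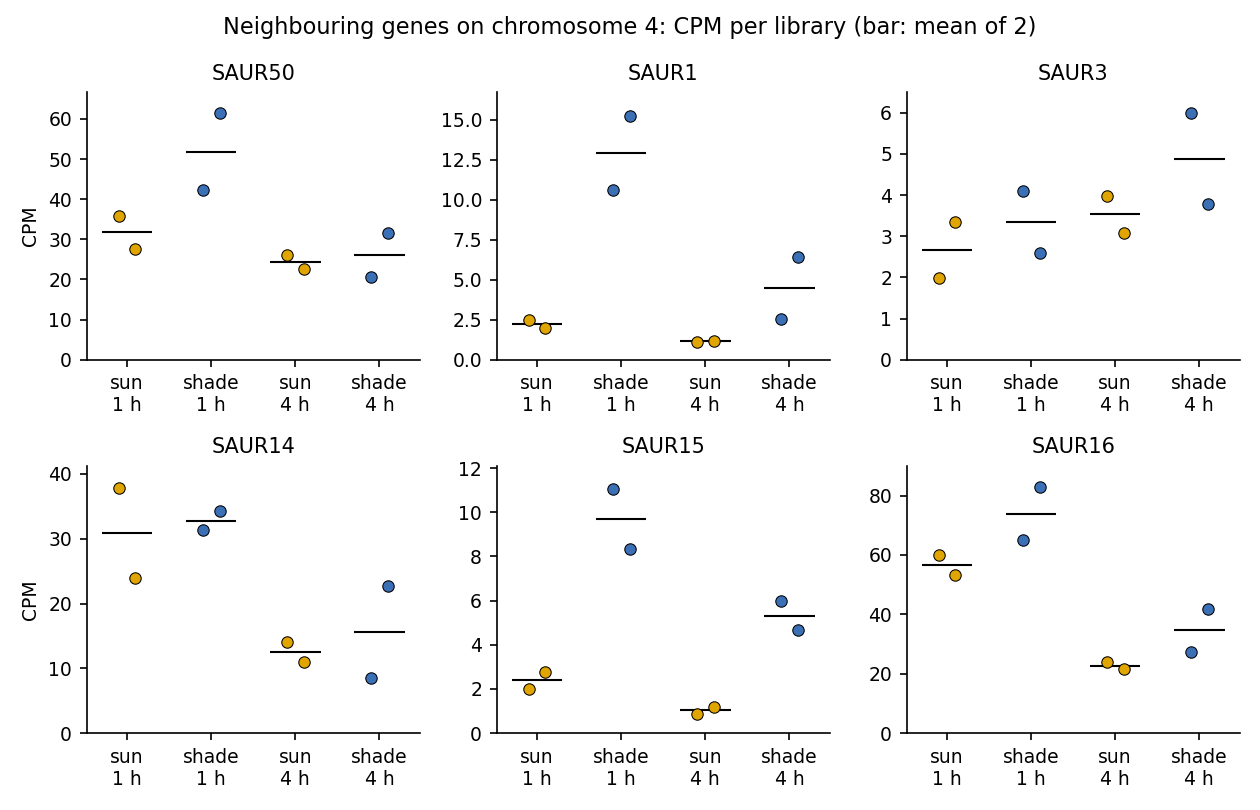
CPM in each of the 8 libraries for 3 genes of each of the 2 chromosome 4 clusters, 1 panel per gene with its own y axis from 0, yellow for sun and blue for shade, with bars at the mean of 2. *SAUR1* reaches 15.2 CPM and *SAUR15* 11.03 CPM in shade at 1 h from at most 2.79 CPM in sun, and the sun points of *SAUR14* and *SAUR16* are lower at 4 h than at 1 h.

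The 3 smaller clusters held no gene that passed in shade. *SAUR7* was at 1.99 and 0.837 CPM in sun against 2.16 and 3.45 CPM in shade at 1 h, and at 1.32 and 1.19 CPM in sun against 4.28 and 3.20 CPM in shade at 4 h. Sun and shade did not overlap at either time (log2 differences 0.68, SE 0.43, and 1.06, SE 0.43, limma, adjusted p = 0.834 and 0.504). *SAUR6*, which overlaps *SAUR7* on the same strand, was at 20.7 and 20.4 CPM in sun against 22.7 and 20.1 CPM in shade at 1 h, and at 20.5 and 14.2 CPM in sun against 24.8 and 26.4 CPM in shade at 4 h. Its groups overlapped at 1 h and not at 4 h, and reads in the overlap of the 2 genes cannot be assigned to either. *SAUR51*, with 8.72 and 5.02 CPM in sun against 8.87 and 3.74 CPM in shade at 1 h, and 4.41 and 3.80 CPM in sun against 4.28 and 5.81 CPM in shade at 4 h, overlapped at both. Its neighbour *SAUR52* was low throughout, with 0.498 and 0.837 CPM in sun against 1.73 and 1.15 CPM in shade at 1 h, and 1.32 and 0.9497 CPM in sun against 2.57 and 0.581 CPM in shade at 4 h.

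*SAUR53* had 0.747 and 2.51 CPM in sun against 2.16 and 4.31 CPM in shade at 1 h, and 1.76 and 1.42 CPM in sun against 4.28 and 2.33 CPM in shade at 4 h. Those groups overlapped at 1 h and not at 4 h. *SAUR54* was at 1.74 and 2.23 CPM in sun against 1.51 and 2.87 CPM in shade at 1 h, and at 3.31 and 3.56 CPM in sun against 0 and 2.62 CPM in shade at 4 h. It overlapped at 1 h and was lower in both shade libraries at 4 h, with the lowest log2 difference of the tested members there (-1.22, SE 0.55, limma, adjusted p = 0.564). *SAUR12* was at most at 2.03 CPM.

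None of the 14 tested single genes passed in shade, in either direction, in limma, edgeR or DESeq2 with all libraries, except *SAUR9* at 1 h in edgeR; 5 were under an unadjusted p of 0.05 at 1 h and 3 at 4 h (35.7% and 21.4%, against 6.73% and 8.62% of all genes). *SAUR9* (AT4G36110) had the largest rise in value. It was at 0.249 and 0.558 CPM in sun against 3.46 and 7.47 CPM in shade at 1 h, and at 1.10 and 0.712 CPM in sun against 0.856 and 1.16 CPM in shade at 4 h. The groups were far apart at 1 h and overlapped at 4 h. The log2 difference was 2.14 at 1 h (SE 0.46, limma, adjusted p = 0.0698) and 0.08 at 4 h. The 1 h value rests on 3 reads in sun and 42 in shade, a ratio of 13.1 (95% counting interval 4.20 to 66.2).

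*SAUR10* and *SAUR76* were also above sun in both shade libraries at 1 h, with 4 reads against 30 and 9 reads against 51, and log2 differences of 1.67 and 1.66. *SAUR78*, whose protein is known to bind ethylene receptors, was at 11.5 and 11.7 CPM in sun against 21.8 and 19.5 CPM in shade at 1 h, and at 21.6 and 23.0 CPM in sun against 23.1 and 21.8 CPM in shade at 4 h. The 1 h sun libraries thus stood below the other 6. *SAUR71* was at 3.24 and 2.23 CPM in sun against 6.27 and 2.01 CPM in shade at 1 h, and at 2.87 and 3.56 CPM in sun against 6.85 and 9.88 CPM in shade at 4 h. It overlapped at 1 h and was apart at 4 h, with a log2 difference of 1.14 (SE 0.44, limma, adjusted p = 0.482).

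Other single genes were lower in shade in value, none past the test. *SAUR32*, known for a role in the apical hook, was at 5.73 and 8.65 CPM in sun against 4.54 and 2.59 CPM in shade at 1 h, and at 5.51 and 4.75 CPM in sun against 5.99 and 3.49 CPM in shade at 4 h. It was apart at 1 h and overlapped at 4 h, with a log2 difference at 1 h of -0.85 (SE 0.38, limma, adjusted p = 0.729). *SAUR59* was at 8.47 and 5.30 CPM in sun against 3.68 and 4.02 CPM in shade at 1 h, and at 9.04 and 6.89 CPM in sun against 14.6 and 5.52 CPM in shade at 4 h. The groups were apart at 1 h and overlapped at 4 h. *SAUR31* was at 13.4 and 18.7 CPM in sun against 15.8 and 9.20 CPM in shade at 1 h, and at 24.04 and 21.4 CPM in sun against 10.3 and 14.8 CPM in shade at 4 h. It overlapped at 1 h and was lower in both shade libraries at 4 h (log2 difference -0.83, SE 0.30, adjusted p = 0.447).

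*SAUR8*, at 2.24 and 1.67 CPM in sun against 1.298 and 3.45 CPM in shade at 1 h, was at 1.32 and 1.90 CPM in sun against 0 and 0.581 CPM in shade at 4 h. That is 14 reads against 2. *SAUR41*, a gene of hypocotyl elongation, had 1.25 and 1.40 CPM in sun against 1.298 and 0.575 CPM in shade at 1 h, and 0.662 and 1.66 CPM in sun against 4.28 and 1.16 CPM in shade at 4 h. It overlapped at both times, as did *SAUR30* (2.99 to 6.40 CPM over all libraries), *SAUR72* (1.99 to 6.85 CPM) and *SAUR77* (0 to 3.09 CPM). *SAUR36*, known as a senescence-associated gene, lay between 0.249 and 1.71 CPM. *SAUR40* had 0 reads in every library and *SAUR25* 6 reads in all, 5 of them in shade at 1 h.

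At 4 h of shade 0 of the 35 members passed in limma, and 0 in edgeR and DESeq2 on the recovered reads. At an unadjusted p under 0.05 there were 13 in limma, 10 in edgeR and 8 in DESeq2. The share of all genes called was 0.119%, and 8.62% were under an unadjusted p of 0.05. The shade libraries lay wholly above those of sun for 12 members (34.3%, against 16.9% of all genes) and below them for 3 (8.57%, against 20.9%). The median log2 fold change was 0.24 for the members and -0.03 for all genes. Without the second replicate of shade at 4 h, which leaves only the shallow library in that group, 3 members passed, *SAUR15* and AT1G29490 higher and *SAUR54* lower. In that fit 921 of all genes were called (4.78%), against 23 with all libraries, and the lone library is assumed to vary like those of the other groups. AT1G29490 had 0 reads in sun at 4 h and 6 in shade, 5 of them in that library (4.28 CPM). Its mean in shade, 2.29 CPM, was 3.33 times a floor of 3 reads per library in sun (0.687 CPM). The other shade library, at 0.291 CPM, was below that floor, so this ratio is not a lower limit on the change.

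Averaged over both times, 6 members rose in shade and 0 fell, against 0.628% of all genes called (0.555% higher and 0.0726% lower). Without the 3 libraries high in jasmonate and wound genes 0 passed. The log2 changes were 1.93 for *SAUR65* (SE 0.27, limma, adjusted p = 0.00327), 1.87 for *SAUR64* (SE 0.26, adjusted p = 0.00327) and 1.68 for *SAUR1* (SE 0.29, adjusted p = 0.0151). *SAUR15* rose by 1.64 (SE 0.26, adjusted p = 0.00760), *SAUR63* by 1.43 (SE 0.28, adjusted p = 0.0323) and *SAUR66* by 1.20 (SE 0.24, adjusted p = 0.0412). Of these 6, 4 lie in the chromosome 1 cluster, and none is a single gene. In 5 of the 6 shade and sun did not overlap at either time, the exception being *SAUR66* at 4 h. The test that picked these 6 used the same values, so this is not separate support. The call of *SAUR66* was lost with a pseudocount of 0.25, and with no filter those of *SAUR66*, *SAUR63* and *SAUR1* were lost.

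The difference between the responses at 4 h and 1 h passed for 0 members in limma, edgeR or DESeq2, with 5, 4 and 2 under an unadjusted p of 0.05 (0.0104% of all genes called and 5.51% under that unadjusted p in limma). Its median over the members was -0.46, against -0.04 over all genes, and it was above 0 for 11 of the 35 (31.4%, against 46% of all genes) and for 0 of the 8 genes of the chromosome 1 cluster. The lowest value, -2.06 for *SAUR9* (SE 0.65, limma, adjusted p = 0.806), and that of *SAUR66* above are the largest in size. The highest was 0.97 for *SAUR41*. A smaller response at 4 h than at 1 h is therefore not shown for any single member.

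**Figure D4:**
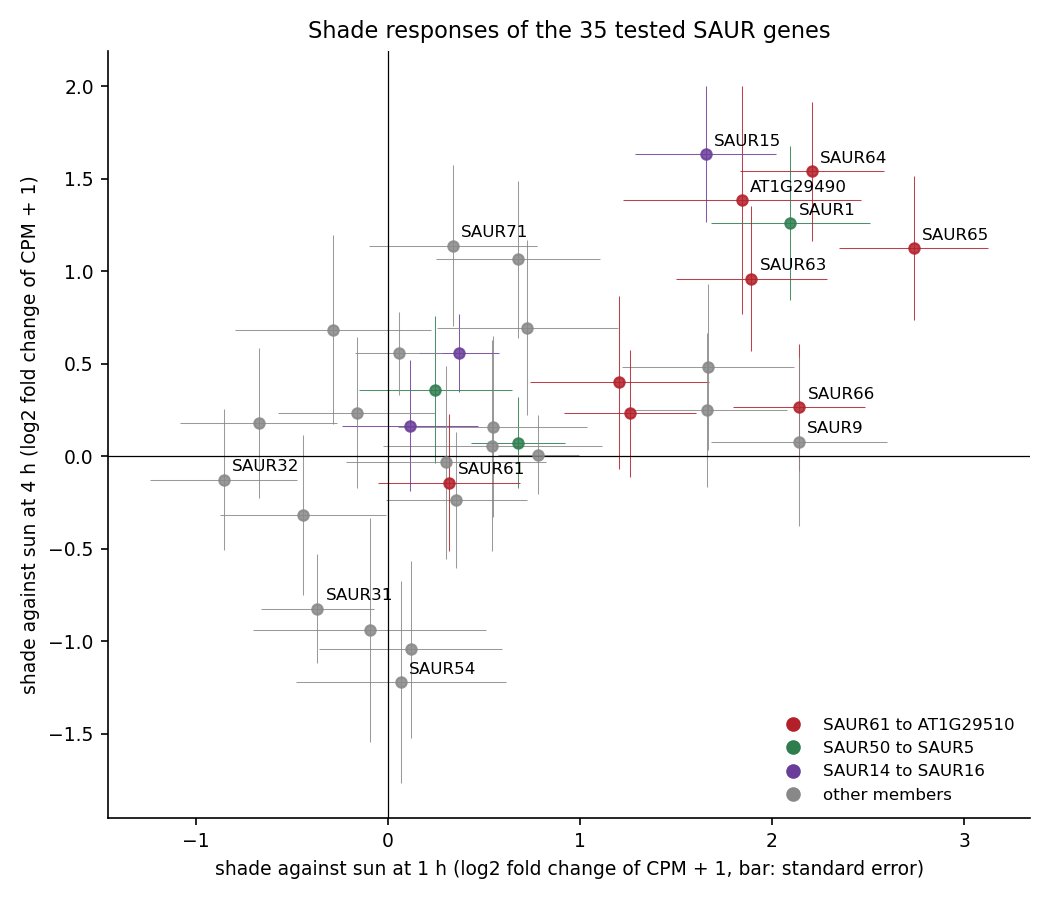
Log2 fold change of shade against sun at 1 h (x axis) and at 4 h (y axis) for the 35 tested genes, with standard errors from limma, coloured by cluster. The chromosome 1 cluster in red reaches 2.74 at 1 h and 1.54 at 4 h, *SAUR15* lies near 1.65 on both axes, and *SAUR66* and *SAUR9* lie at 2.14 at 1 h and under 0.3 at 4 h.

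These counts depend on single libraries, with 2 per group. Fewer of all genes were also called at 1 h without any 1 of the 4 libraries compared there. The call of *SAUR1* at 1 h was also lost with a pseudocount of 0.25, with a filter of 5 CPM and without either sun library at 4 h. With no filter *SAUR65* was the only member called at 1 h. Leaving out 1 of the 4 libraries of the 1 h comparison left 1 call (*SAUR65*, without the first sun replicate) or 0 (without any other). For the mean of both times 2 or 3 calls were left without any one of the sun libraries or the shade libraries at 1 h, and *SAUR64* and *SAUR65* were among them each time. Leaving out the 3 libraries high in jasmonate and wound genes keeps 1 library in 3 of the 4 conditions. The log2 differences at 1 h were then 3.03 for *SAUR65*, 2.58 for *SAUR64*, 2.21 for *SAUR66* and 2.22 for *SAUR1*. At an unadjusted p under 0.05 there were 15 members at 1 h in that fit, and 5.15% of all genes.

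Between 1 h and 4 h in sun, 1 of the 35 tested members fell and 1 rose, against 3.58% of all genes called (1.44% lower and 2.15% higher). Counts this small do not set the members apart from all genes. Without the 3 libraries named above 0 members passed. The 2 conditions differ in both the hours in the treatment and the hour of the day, and these cannot be told apart. *SAUR16* fell from 60.02 and 53.3 CPM to 23.8 and 21.6 CPM, by 1.28 on the log2 scale (SE 0.21, limma, adjusted p = 0.00532). *SAUR78* rose from 11.5 and 11.7 CPM to 21.6 and 23.0 CPM, by 0.89 (SE 0.21, adjusted p = 0.0362). The 2 times did not overlap for either gene, and the 2 shade groups of *SAUR78* were both near its later sun level.

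Next in size were *SAUR14* (log2 difference -1.22, SE 0.35, limma, adjusted p = 0.0800), AT1G29510 (-1.22, SE 0.47, adjusted p = 0.187) and *SAUR62* (-1.15, SE 0.34, adjusted p = 0.0881). At an unadjusted p under 0.05 in limma there were 5 of the 35 members, a smaller share than the 17.6% of all genes. The later sun libraries were below the earlier ones for 12 members (34.3%, against 22.5% of all genes), among them all 3 genes from *SAUR14* to *SAUR16* and 5 of 8 from *SAUR61* to AT1G29510. They were above for 9 (25.7%, against 33% of all genes), of which 6 are single genes. Leaving out any 1 of the 4 sun libraries left 0 members past the test. *SAUR78* also missed it with no filter, with quantile normalization or median ratio rescaling, in DESeq2 and without either shade library at 1 h. *SAUR14* and *SAUR16* were lower together, and *SAUR14* stayed at 45.0% to 63.1% of *SAUR16* in the 4 sun libraries and 31.3% to 54.2% in the 4 shade libraries.

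**Figure D5:**
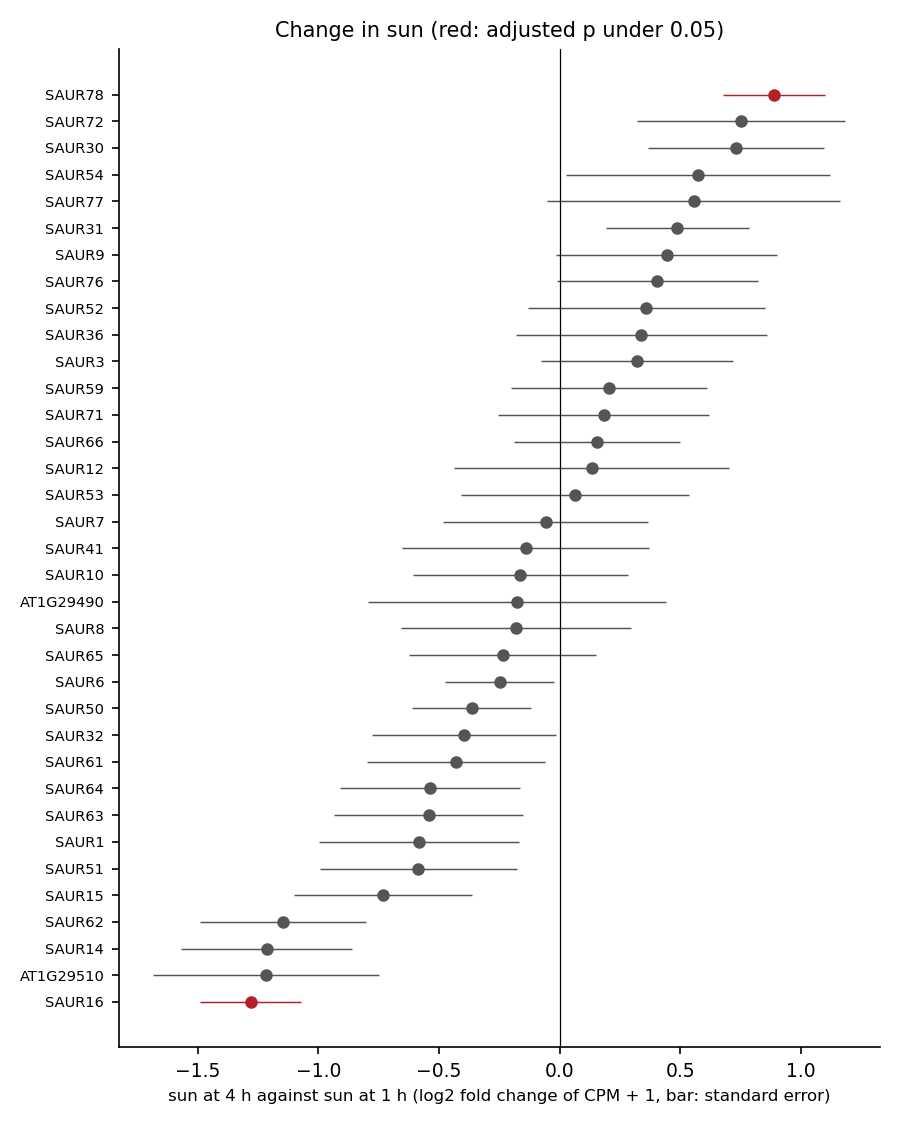
Log2 fold change of sun at 4 h against sun at 1 h for the 35 tested genes, ordered by value, with standard errors from limma. The 2 red points passed the test, *SAUR16* at -1.28 and *SAUR78* at 0.89.

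Levels within the family were uneven. Per kilobase of transcript, the mean over all libraries was 44.8 CPM for *SAUR16*, 39.5 for *SAUR14* and 37.5 for *SAUR50*, and next came *SAUR31* at 17.7, *SAUR78* at 15.99 and *SAUR6* at 15.2. The 3 highest genes together made up 51.7% and 45.0% of the summed CPM of the 40 members in sun at 1 h and 35.5% and 44.6% in shade. At 4 h they made up 31.2% and 30.01% in sun and 25.3% and 37.2% in shade. None of the 3 passed the test in shade, and the 6 that did were at 5.403 to 10.6 CPM per kilobase. The 40 members summed to 259 and 233 CPM in sun against 391 and 400 CPM in shade at 1 h, and to 205 and 184 CPM in sun against 224 and 258 CPM in shade at 4 h.

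The genes share a compact structure. A single exon was annotated for 38 of the 40, and coding sequences were 261 to 561 bases long with a median of 363. No 40-base window recurred for 31 members, and fewer than 10% did for 37. Identity of coding sequences was lower in the chromosome 4 clusters than at the top of the chromosome 1 cluster, at 46.4% to 62.0% from *SAUR50* to *SAUR5* and 49.4% to 59.6% from *SAUR14* to *SAUR16*. Gaps count against identity here as well. In all, 7 members overlapped another annotated gene, *SAUR7*, *SAUR8* and *SAUR31* among them with an antisense one.

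The *SAUR19* to *SAUR24* and *SAUR26* to *SAUR29* genes gave higher values. All 10 were tested, 5 rose at 1 h, 0 at 4 h (7 at an unadjusted p under 0.05 in limma) and 7 over both times. Of all genes 0.472%, 0.119% and 0.628% were called in these comparisons, and 8.62% were under that unadjusted p at 4 h. The median log2 fold changes of the 10 were 2.27 at 1 h and 1.55 at 4 h, against 0.54 and 0.24 for the members here. The 10 genes summed to 19.9 and 33.2 CPM in sun against 135 and 179 CPM in shade at 1 h. Of the 40-base windows, 28.6% in *SAUR19*, 15.7% in *SAUR24*, 13.2% in *SAUR20* and 9% in *SAUR21* recurred in the genome, and 0% in *SAUR26* to *SAUR29*. The levels of genes with such windows are uncertain here too. The difference between the 2 sets was not tested. The chromosome 1 cluster, with a median of 1.87, was the group here nearest to them at 1 h.

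Of the 9 genes for PP2C-D phosphatases, which SAUR proteins inhibit, 2 rose at 1 h, AT5G02760 and AT5G66080, with log2 fold changes of 2.54 and 2.31 (limma, adjusted p = 4.63e-05 and 0.00902). AT5G02760 also rose at 4 h, by 1.76 (limma, adjusted p = 0.00392), and the median of the 9 was -0.01 at 1 h. Of all genes 0.472% were called at 1 h and 0.119% at 4 h. Of the 11 genes for plasma membrane proton pumps (AHA), which PP2C-D phosphatases hold in check, 10 were tested and 0 passed in shade in limma. Under an unadjusted p of 0.05 in limma were 1 at 1 h and 4 at 4 h, against 6.73% and 8.62% of all genes. Other tools were not run on this list. In sun 2 of the pump genes rose between 1 h and 4 h, *AHA2* by 1.03 (limma, adjusted p = 0.00423) and *AHA1* by 0.69 (adjusted p = 0.0250). Of the phosphatase genes AT4G38520 also rose in sun, by 0.79 (limma, adjusted p = 0.0142). The share of all genes called in that comparison was 3.58%.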

How the data were processed

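The authors sorted barcodes, trimmed adaptors and mapped 40-base single-end reads with TopHat to the Arabidopsis genome with its annotation (TAIR10), and deposited CPM for each gene and library; edgeR is named in the submitters' notes. The counter and its treatment of reads matching several genes are not given in the sources used here, and the kit is not described as stranded. All 8 columns of deposited CPM were used (0 unused). In every library 100% of values were whole multiples of the value of 1 read (tolerance 0.01 read), which gave the recovered reads. These totalled 1154019 to 4680620 per library, and at 10 CPM the relative counting error (SD over mean) is 14.7% to 29.3%.

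Genes with at least 1 CPM in at least 2 libraries (19280) were tested on log2(CPM + 1), with a pseudocount of 1, by limma 3.58.1 (R 4.3.3) with a mean-variance trend, all 8 libraries and 1 mean per condition. The 5 contrasts were shade against sun at 1 h, at 4 h and averaged, the difference of the responses, and sun at 4 h against 1 h. Such fold changes understate those of low genes. A call is a Benjamini-Hochberg adjusted p under 0.05. Replicates are pools of 5 plants, and 2 against 2 libraries cannot give an exact permutation p under 0.05. On the recovered reads, which make no main result, edgeR 4.0.16 (quasi-likelihood) called 138 genes at 1 h and 28 at 4 h, and DESeq2 1.42.0 called 118 and 49. Other alternatives changed the pseudocount, filter, scaling, block and libraries. Scripts were tested on simulated data.

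Members with every library's value were those called in any contrast, the highest and the most changed at 1 h of each tandem cluster, and, among single genes, the 3 highest and the largest rise and fall of each contrast. Members, lists and motifs were chosen with earlier results of these data known. Genes added to these, such as SAUR61, SAUR62, SAUR14, AT1G29490 and AT1G29510, were chosen after their values were seen. Names, structure and upstream sequence come from RefSeq TAIR10.1, where all 40 matched. The upstream window of 1 member, one of the 6 that passed in shade, is not reported here. AT1G29490 and AT1G29510 carry the same gene name there and are given by identifier. Intervals are exact at 95% and cover counting error, assuming independent reads. Python 3.11.15, pandas 2.3.3, Biopython 1.88 and matplotlib 3.10.9 were used.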

Additional observations from a re-analysis of the deposited data

How the results depend on the processing

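Of the 46 log2 values of members given by rule, 39 kept their direction in all alternatives run, and of the 12 called values 0 reversed. Of those 12, 5 stayed past the threshold in every alternative except left-out libraries. Among all genes the share called at 1 h was 0.472% with the main settings, 0.144% with no filter and 0.716% in edgeR. It also changed when libraries were left out. The number of members called moved more than the directions. At an adjusted p under 0.001 it was 0 for shade at 1 h, for the mean of both times and for sun at 4 h against 1 h. With no filter beyond a value above 0, which tests more genes, it was 1, 3 and 1 for these. edgeR on recovered reads gave 7 at 1 h (adding SAUR63, SAUR9 and SAUR15) and 4 for the change in sun (adding SAUR62 and SAUR14), and fitting only the sun libraries also gave 4. Quantile normalization and median ratio rescaling each gave 1 for the change in sun, where SAUR78 was lost, and the cause was not tested. Leaving out 1 library at a time gave 0 to 7 calls at 1 h, 0 to 3 at 4 h, 2 to 7 for the mean, 0 to 1 for the difference of responses (SAUR66, without the second replicate of shade at 4 h) and 0 to 4 for the change in sun. Leaving out the 3 libraries highest in jasmonate and wound genes, an alternative chosen after seeing the data, gave 0 in all 5 comparisons.

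Samples with the same replicate number did not deviate together, with correlations of -0.0632 to 0.103 between groups, so the numbers do not pair the libraries. With the replicate block 4 members were called at 1 h, 0 at 4 h, 5 for the mean (SAUR66 was lost), 0 for the difference and 2 for the change in sun.

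Directions reversed for small values when 1 library was left out. The log2 value then ranged from -0.0274 to 0.1398 for SAUR6 and from -0.6919 to 0.3672 for SAUR51 at 1 h. At 4 h it ranged from -0.2273 to 0.3733 for SAUR50, from -0.1055 to 0.6351 for SAUR66, from -0.4286 to 0.7459 for SAUR52, from -0.4482 to 0.806 for SAUR59 and from -0.0352 to 0.0525 for SAUR78. The reversals came without either replicate of shade at 1 h (SAUR6, the first, and SAUR51, the second), the first of sun at 1 h (SAUR51, 0.1826), either of sun at 4 h (SAUR78, the first, and SAUR50, the second, -0.026), the first of shade at 4 h (SAUR52, SAUR59 and SAUR78, -0.0321) and the second (SAUR50 and SAUR66). Without the 3 libraries high in jasmonate and wound genes SAUR51 was 0.1826 at 1 h, and SAUR52 and SAUR59 were -0.555 and -0.6226 at 4 h. Depth limits the low members, since 1 read is 0.856 CPM in the shallowest library.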
